A study of Homo sapiens with 10 samples.

Results

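10 keratin genes, grouped here as luminal and basal keratins of the breast epithelium, were followed across every H3K4me1 and HER2 list of the study. They were the 4 luminal keratins KRT7, KRT8, KRT18 and KRT19 and the 6 basal keratins KRT5, KRT6B, KRT14, KRT15, KRT17 and KRT23, and they made up 10 of the 55 keratin genes and of the 20098 protein-coding genes annotated on the chromosomes used. They were chosen by name and sorted into luminal and basal by hand, since no label gives the groups. Each was taken as its gene body with 20 kb on each side (its window, in hg19 coordinates). SKBR3 and BT474 are established human breast cancer cell lines, and both carry an amplified ERBB2 gene, which encodes the receptor HER2. HER2 was mapped by ChIP-exo, in which immunoprecipitated DNA is trimmed by an exonuclease, in cells that had received either water as the vehicle or, at 100 ng/ml over 3 h, the growth factor EGF, a ligand of the related receptor EGFR, and every condition gave a single peak list without a replicate. H3K4me1, the monomethylation of lysine 4 on histone H3 that marks enhancers, was profiled in duplicate libraries of each line by ChIP-seq (n = 2). Those libraries are labelled as asynchronous cells, while the study describes EGF treatment, and no vehicle arm of the mark was analysed here. Each line is a single tumour line and stands for itself alone.

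Keratins form the intermediate filaments of epithelial cells as pairs of a type I and a type II protein. Genes of type II lie in a cluster on chromosome 12 and those of type I in a cluster on chromosome 17, except KRT18, a type I gene that lies beside its partner KRT8 on chromosome 12. In the breast, KRT8 and KRT18 with KRT7 and KRT19 mark the luminal cells that line the ducts. KRT5 with KRT14, and KRT17 with them, mark the basal and myoepithelial layer, and tumours are called luminal or basal by the same proteins. KRT6B, KRT15 and KRT23 are not among these markers but were counted here as basal.

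The H3K4me1 islands (stretches called as enriched) held 15636057 and 15314195 reads in the SKBR3 replicates and 18714089 and 15097245 in the BT474 replicates. A median island held 40 and 38.9 reads per kb in SKBR3 and 50 and 42.7 in BT474. No depth could be read from the HER2 lists. Of 10 other luminal genes used to check the lines, 8 and 7 had more island cover than the median window in the SKBR3 replicates and 10 and 10 in those of BT474, and CDH1, the E-cadherin gene of epithelial cells, had no island in SKBR3. No island was found in SKBR3 either at ACTA2, CNN1, CDH3 and SNAI2, which are among the basal genes of this check. Of 10 other basal genes, 4 were above the median window in both SKBR3 replicates and 6 in both of BT474. Of 5 blood genes it was 3 and 4 in SKBR3 and 2 and 3 in BT474, and of the 3 endothelial genes found it was 1 in each library.

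The sequences on which the HER2 results and the start site results turn are given first, as the GRCh37 plus strand of the midpoint of each HER2 peak with 100 bases on each side, or as the 250 bases before a RefSeq start. They show what lies under the only HER2 sites of the 10 windows, and at a RefSeq start of a basal and of a luminal type II gene. The KRT8 start used, chr12:53320253, is not its canonical start, chr12:53298860, which lies further downstream. Letters were searched on both strands for TATAAA (the box of this name), for GGGCGG (known as the GC box), for TGANTCA (AP-1), for GCCNNNGGC (AP-2) and for CGTNTGC (the core the study names at HER2 sites), and matches are in capitals. The study writes this core as CGT_TGC without the length of the gap, which was taken here as any single base. CANNTG (E box) was counted but not capitalised, since 61.8% of all RefSeq promoters hold it.
KRT14, HER2 peak in SKBR3 vehicle, chr17:39734930-39735130: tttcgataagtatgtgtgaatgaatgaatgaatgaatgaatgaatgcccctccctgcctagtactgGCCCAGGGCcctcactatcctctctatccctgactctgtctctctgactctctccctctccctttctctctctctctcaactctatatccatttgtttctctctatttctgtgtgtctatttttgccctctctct
KRT14, HER2 peak in SKBR3 EGF, chr17:39729829-39730029: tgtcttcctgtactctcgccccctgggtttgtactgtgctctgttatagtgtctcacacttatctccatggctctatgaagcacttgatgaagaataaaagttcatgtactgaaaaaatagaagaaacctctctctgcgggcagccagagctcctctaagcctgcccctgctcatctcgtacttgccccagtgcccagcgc
KRT23, HER2 peak in BT474 vehicle, overlapped by one in BT474 EGF, chr17:39082743-39082943: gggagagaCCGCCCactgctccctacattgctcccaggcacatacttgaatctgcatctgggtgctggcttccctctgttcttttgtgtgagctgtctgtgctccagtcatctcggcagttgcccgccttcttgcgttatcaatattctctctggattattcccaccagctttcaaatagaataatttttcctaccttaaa
KRT23, HER2 peak in BT474 EGF, chr17:39105271-39105471: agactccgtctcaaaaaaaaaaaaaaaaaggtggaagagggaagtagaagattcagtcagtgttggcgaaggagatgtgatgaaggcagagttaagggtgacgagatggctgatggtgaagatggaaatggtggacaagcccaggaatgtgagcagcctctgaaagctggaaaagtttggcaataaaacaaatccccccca
KRT7, HER2 peak in SKBR3 EGF just outside the window, chr12:52603553-52603753: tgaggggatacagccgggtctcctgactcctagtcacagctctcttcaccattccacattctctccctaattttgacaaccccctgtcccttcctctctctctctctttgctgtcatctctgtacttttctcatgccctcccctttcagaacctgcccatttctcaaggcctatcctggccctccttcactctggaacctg
KRT5 promoter, minus strand, chr12:52914179-52914428: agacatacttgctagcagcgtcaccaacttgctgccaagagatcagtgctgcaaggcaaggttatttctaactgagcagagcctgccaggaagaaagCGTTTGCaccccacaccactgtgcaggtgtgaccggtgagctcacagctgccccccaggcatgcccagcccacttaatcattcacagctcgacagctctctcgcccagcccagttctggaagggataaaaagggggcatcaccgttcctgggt
KRT8 promoter, minus strand, chr12:53320254-53320503: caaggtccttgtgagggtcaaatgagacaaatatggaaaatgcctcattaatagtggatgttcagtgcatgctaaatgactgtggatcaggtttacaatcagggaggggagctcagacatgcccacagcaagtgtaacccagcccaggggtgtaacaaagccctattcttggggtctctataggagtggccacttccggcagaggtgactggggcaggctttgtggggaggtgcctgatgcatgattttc
The first stretch holds AP-2 letters from base 67, as do 1.66% of the SKBR3 vehicle peaks, and the third holds GC box letters from base 9, as do 1.88% of the BT474 vehicle peaks. None of the 5 peaks in the windows holds the core within 100 bases of its midpoint, where it was in 7.55% of SKBR3 vehicle, 15.3% of SKBR3 EGF, 19.0% of BT474 vehicle and 10.96% of BT474 EGF peaks. The KRT5 promoter does hold it, from base 98, as do 6.33% of the 35116 RefSeq promoters. The stretch printed for KRT8 holds none of the capitalised letters, and the sequence before its canonical start was not searched. Only KRT5 and KRT8 of the 10 genes were matched in the RefSeq promoter table, whose sequences are from GRCh38.p14 and were found once each in GRCh37.

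The windows of the 4 luminal keratins were covered for 32.0% or more by H3K4me1 islands in every library of both lines. At KRT7, a type II keratin of ducts and glands, islands covered 83.9% and 87.9% of the window in the SKBR3 replicates and 74.9% and 74.9% in those of BT474. KRT19, the smallest type I keratin, reached 95.5% and 95.5% in SKBR3 and 80.5% and 87.2% in BT474. In both windows every SKBR3 replicate lay above both BT474 replicates, and all values lay far above the median protein-coding window, which was covered for 11.02% and 11.6% in SKBR3 and 12.9% and 12.1% in BT474. KRT8 was covered for 54.9% and 51.9% in SKBR3 and 52.1% and 54.5% in BT474, and its type I partner KRT18 for 47.9% and 36.9% in SKBR3 and 38.7% and 32.0% in BT474. The lines overlapped at both genes of this pair, whose windows share 41.1 kb, or 44.3% of the KRT8 and 93.3% of the KRT18 window. Against all protein-coding windows, the luminal keratins had more cover than 85.4% of them or more in every library, with the lowest rank at KRT18 in BT474 replicate 2.

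The basal keratins ranged from 18.9% to 96.7% in the SKBR3 libraries and from 2.69% to 75.0% in those of BT474. KRT15, a type I keratin of basal and stem cells, was covered for 95.9% and 95.9% in SKBR3 and 69.3% and 75.0% in BT474. KRT23, a short type I keratin, was covered for 96.7% and 95.3% in SKBR3 but 35.6% and 32.3% in BT474. KRT14, the type I partner of KRT5 in basal cells, was covered for 35.9% and 40.3% in SKBR3 and 3.14% and 2.69% in BT474. KRT17, a type I keratin of basal and wounded epithelium, was covered for 37.9% and 47.8% in SKBR3 and 5.73% and 4.41% in BT474. In BT474 KRT14 and KRT17 were thus the only keratins of the 10 whose cover lay below the median window in both replicates, and they share there an island of 1.4 kb and 1.2 kb in the replicates, the only one in the KRT14 window. KRT5, the type II keratin of basal cells, was covered for 37.8% and 33.9% in SKBR3 and 11.6% and 12.6% in BT474. KRT6B, a type II keratin of stressed epithelium, was covered for 18.9% and 24.6% in SKBR3 and 19.8% and 19.8% in BT474, and its gene body held no island in any of the 4 libraries. Only 59.7% of the 36-base stretches of the KRT6B body occur once in the genome, which limits where reads of that length can be placed, against 71.8% at KRT17, 74.7% at KRT14 and 80.6% or more at the other 7 bodies.

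**Figure D1:**
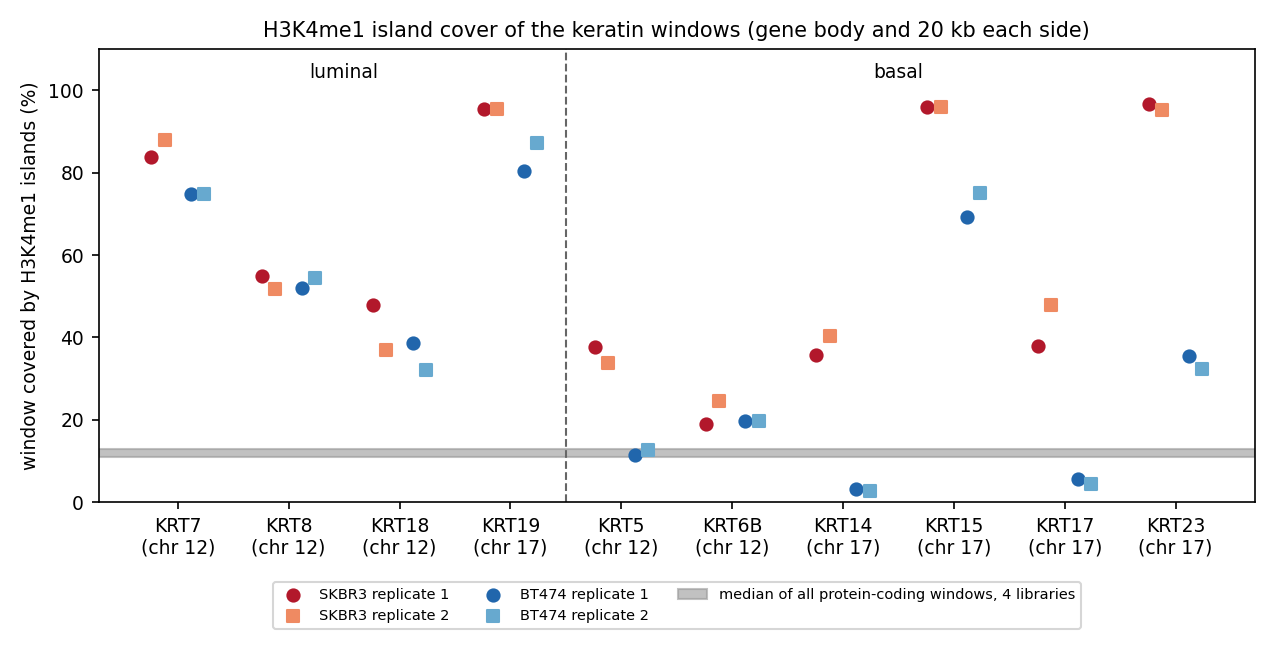
Share of each window covered by H3K4me1 islands (y axis, percent) at the 10 keratins (x axis, with their chromosome), 1 point per library, and the median of all protein-coding windows as a grey band. KRT7 and KRT19 lie above 74% in every library, and KRT14 and KRT17 fall below 6% in BT474.

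As groups, the luminal keratins had the larger median cover in both lines, with 69.4% and 69.9% against 37.8% and 44.1% for the basal keratins in SKBR3, and 63.5% and 64.7% against 15.7% and 16.2% in BT474. The difference of the medians was 28.7 ± 4.06 percentage points in SKBR3 and 48.2 ± 0.447 in BT474 (SD, n = 2), and it was not tested because members are not replicates. The groups overlapped in both lines, since KRT15 lay above KRT8 and KRT18 in all 4 libraries. The other 45 keratin genes had a median cover of 41.5% and 46.2% in SKBR3 and 20.3% and 19.8% in BT474. The basal medians thus lay below those of the other keratins in each library. In SKBR3 the order depended on the window. Over gene bodies alone the difference of the medians was -4.44 percentage points there, with KRT14 covered for 83.8% and 83.8% and KRT15 for 100% and 100% of the body, and KRT18 for 17.1% in replicate 1 with no island in replicate 2.

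Scaled reads, given as reads per 1e+06 island reads and per kb of window, ordered the genes in a similar way. In SKBR3 KRT15, KRT19 and KRT23 led with 7.11 ± 0.356, 7.07 ± 0.301 and 7.06 ± 0.417 (SD, n = 2), and did not differ beyond their spread. They were followed by KRT7 at 3.36 ± 0.0968, KRT8 at 1.69 ± 0.0411, KRT18 at 1.403 ± 0.130, KRT14 at 1.33 ± 0.0799, KRT17 at 1.16 ± 0.310, KRT5 at 0.857 ± 0.0663 and KRT6B at 0.526 ± 0.0238. The replicate values of KRT18, KRT14 and KRT17 overlapped. In BT474 KRT7 led with 3.88 ± 0.0779, followed by KRT19 at 3.11 ± 0.0761, KRT15 at 2.56 ± 0.0380, KRT8 at 2.09 ± 0.00670, KRT18 at 1.504 ± 0.0717 and KRT23 at 1.18 ± 0.0355. At the foot of the BT474 order stood KRT6B at 0.518 ± 0.00479, KRT5 at 0.404 ± 0.0211, KRT17 at 0.118 ± 0.0125 and KRT14 at 0.0662 ± 0.00124, and no neighbours in it overlapped. The reads also lay more densely within the islands of the 3 leading SKBR3 genes, at 114 ± 3.20 reads per kb of island for KRT19, 115 ± 4.05 for KRT15 and 114 ± 7.17 for KRT23, than in those of BT474, at 62.9 ± 11.5, 60.4 ± 11.6 and 58.6 ± 3.13. At KRT7 the density went the other way, with 60.4 ± 1.15 in SKBR3 and 87.5 ± 11.5 in BT474. The means did so at the other chromosome 12 members as well. They were 49.0 and 66.5 at KRT8, 51.6 and 71.9 at KRT18, 37.2 and 56.6 at KRT5, and 37.9 and 44.2 at KRT6B, where the replicates overlapped. These densities, unlike the scaled reads, are not corrected for the number of reads in a library. KRT15 and KRT19 are not separate measurements, because their windows share 38.9 kb, or 79.8% and 87.1% of each.

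**Figure D2:**
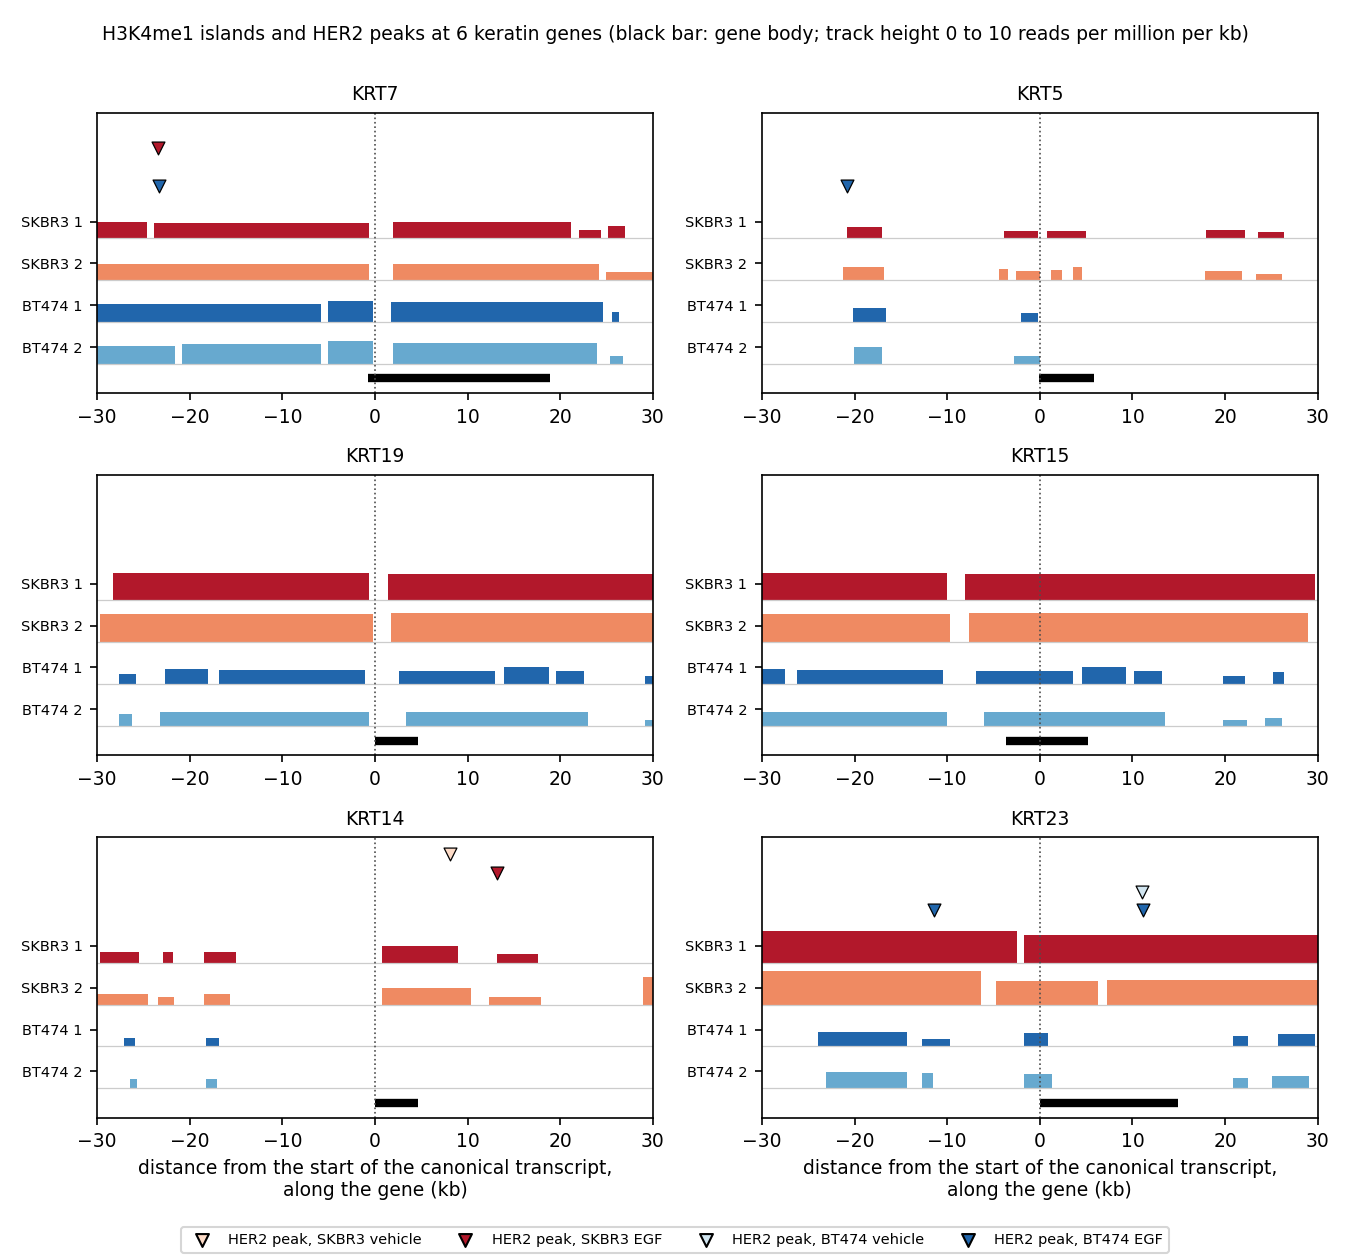
H3K4me1 islands of the 4 libraries around 6 of the keratins, by distance from the start of the canonical transcript along the gene (x axis, kb), with track height for reads per 1e+06 island reads and per kb of island on a common scale, the gene body as a black bar and HER2 peaks as triangles by list. The SKBR3 islands of KRT19, KRT15 and KRT23 are long and tall, KRT7 has long islands on both sides of its start in both lines, and BT474 has no island over the KRT14 body.

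At the canonical start sites, islands stopped short of the 4 luminal keratins and ran across 3 basal ones in SKBR3 and 2 in BT474. By any annotated start the division was not the same, with 3 of 4 luminal and 5 of 6 basal genes in islands of both replicates in SKBR3, and 4 of 4 luminal and 2 of 6 basal genes in BT474. The luminal genes have 7 to 18 annotated starts and the basal genes 1 to 9, and more starts leave more room for a hit. No share of all genes is given for this rule. Annotated starts differ, so the 5′ end of the gene and the start of the canonical transcript are both given, the latter because the 5′ end of KRT8 in the annotation lies inside KRT18. The 5′ end lay in an island of both replicates at 4 of 10 genes in SKBR3 (KRT7, KRT15, KRT17 and KRT23) and at 3 of 10 in BT474 (KRT7, KRT15 and KRT23), where 10.7% and 13.8% of all protein-coding genes did. The canonical start lay in an island of both replicates at KRT15, KRT17 and KRT23 in SKBR3 and at KRT15 and KRT23 in BT474, against 8.54% and 11.6% of all genes. The canonical starts of the 4 luminal genes lay outside islands in all 4 libraries, as did most starts of all genes. An island nevertheless ended just upstream of each of them. The gap upstream was 227 to 627 bp at KRT7, 141 to 341 bp at KRT8, 502 to 702 bp at KRT18 and 241 to 1041 bp at KRT19 over the 4 libraries. Downstream the islands resumed after 1774 to 1974 bp at KRT7, 2660 to 3260 bp at KRT8, 1299 to 15299 bp at KRT18 and 1360 to 3360 bp at KRT19.

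A start outside islands with an island within 2 kb on both sides, in both replicates, was found at KRT7, KRT19 and KRT5 in SKBR3, where 13.7% of all genes had it, and at KRT7 and KRT18 in BT474, where 22.8% had it. KRT7 was the gene with this pattern in all 4 libraries. Among the basal genes, KRT14 had an island 747 bp downstream of its start in both SKBR3 replicates and none closer than 16854 bp in BT474. KRT17 had its start inside islands in both SKBR3 replicates, with the nearest BT474 island 10627 and 11227 bp away. The KRT5 start, which is also its RefSeq start, lay 23 to 223 bp from an island on the upstream side in all 4 libraries, so the islands reached into the promoter printed above, while downstream BT474 had no island for 63578 and 64178 bp. The RefSeq start of KRT8 lies upstream of the canonical one and was inside islands of all 4 libraries. KRT6B had no island within 2 kb of its start in SKBR3 and one 1271 and 471 bp upstream in BT474.

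**Figure D3:**
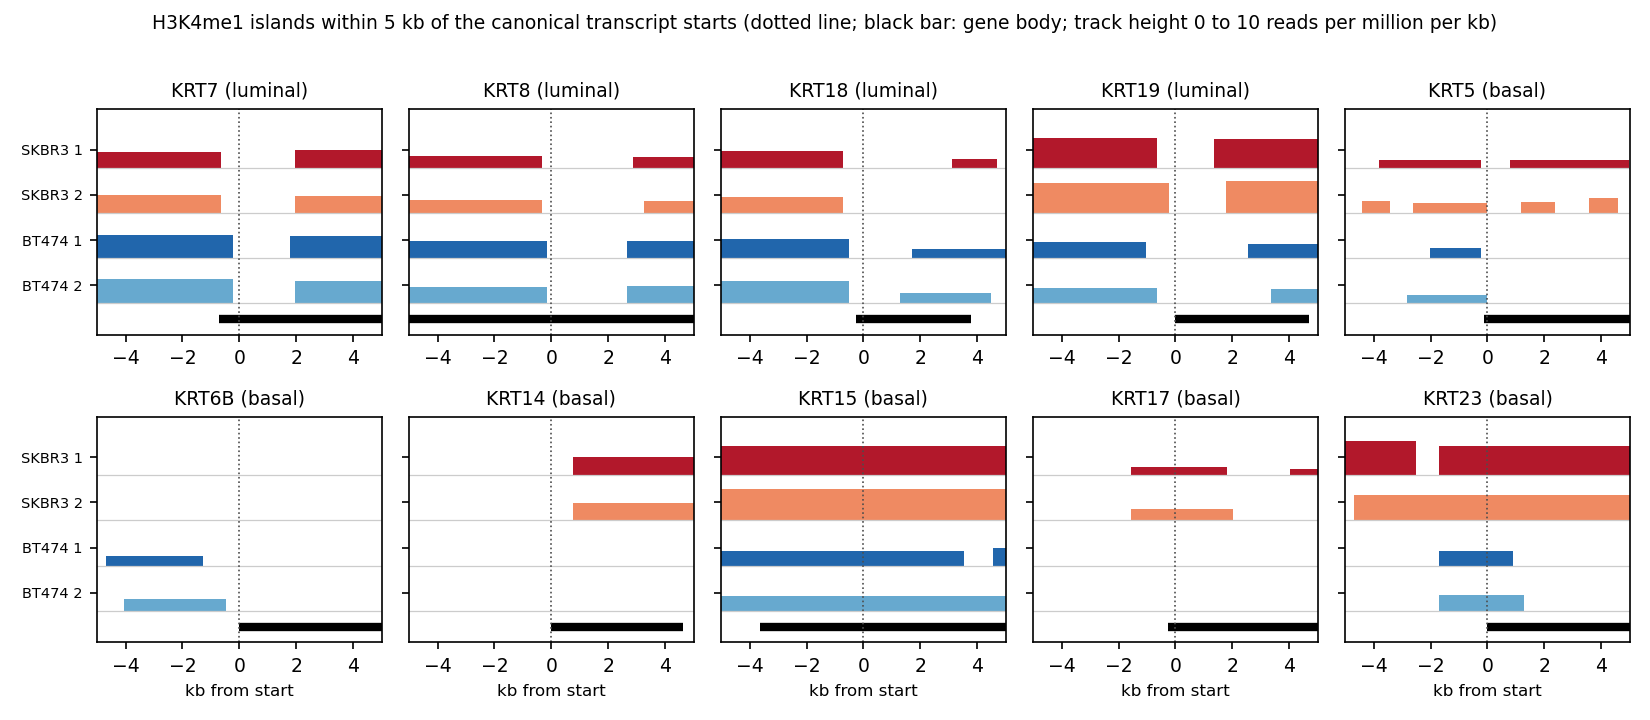
H3K4me1 islands within 5 kb of the canonical start (dotted line) of each of the 10 keratins, by distance along the gene (x axis, kb), with 1 track per library whose height gives reads per 1e+06 island reads and per kb of island, and the gene body as a black bar. At the 4 luminal genes the start falls in a gap in every library, whereas it lies inside the island at KRT15 and KRT23.

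Between the lines, 6 of the 10 keratin windows had more H3K4me1 island reads in SKBR3 than in BT474 and none had fewer at an adjusted p under 0.05 (edgeR quasi-likelihood test over 18346 windows, Benjamini-Hochberg). Over all windows, 30.1% were higher in SKBR3 and 36.1% higher in BT474. All 10 keratins passed the filter on low counts. The 6 were KRT19, the single luminal gene among them, with KRT5, KRT14, KRT15, KRT17 and KRT23. Of these, KRT15 and KRT19 turned lower in SKBR3 when set against the surrounding 1 Mb, as given after the single genes. At an unadjusted p under 0.05 the same fit still placed 0 keratins lower in SKBR3, while DESeq2 called 1 lower (KRT8) and limma 2 (KRT7 and KRT8), each with the same number of 6 higher. Nothing in the sources says that replicates came from separate cultures, so these p-values measure only the spread between the libraries, and 2 samples against 2 could not reach an exact permutation p below 0.333.

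KRT14 showed the widest gap of the 10, with 885 and 944 reads in its SKBR3 window and 56 and 44 in BT474. Summed over called islands, this was a log2 difference of 4.46 ± 0.11 (SE, adjusted p = 0.000313). Most of it was covered length, at 38.1% ± 3.17 of the window in SKBR3 and 2.91% ± 0.317 in BT474, since within islands the density was 53.9 ± 2.03 and 38.3 ± 2.36 reads per kb (SD, n = 2). Reads outside islands were not used here, so this and the other differences compare what was called in each library, not the mark over the whole window. Its gene body had 271 and 261 reads in SKBR3 and no island in BT474. KRT17 had 666 and 957 reads against 108 and 75, a log2 difference of 3.42 ± 0.24 (adjusted p = 0.00106), and its body likewise had no island in BT474. KRT14 and KRT17 windows share 7.45 kb. KRT23 had 6318 and 5692 reads against 1188 and 1000, a log2 difference of 2.72 ± 0.085 (adjusted p = 0.000352). In all of these windows the libraries of the lines were far apart relative to the replicates.

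KRT15 had 5234 and 5502 reads in SKBR3 and 2316 and 1908 in BT474, a log2 difference of 1.61 ± 0.053 (adjusted p = 0.000364). Its neighbour KRT19 had 4790 and 4983 against 2554 and 2133, with 1.32 ± 0.054 (adjusted p = 0.000442). KRT5 was the single gene of chromosome 12 among the 6, with 582 and 636 reads against 335 and 291 and a log2 difference of 1.22 ± 0.11 (adjusted p = 0.00195). The remaining 4 windows, all on chromosome 12, did not pass the test. Their log2 differences were -0.07 ± 0.051 at KRT7 (adjusted p = 0.266), -0.17 ± 0.061 at KRT8 (adjusted p = 0.0761), 0.04 ± 0.11 at KRT18 (adjusted p = 0.780) and 0.16 ± 0.11 at KRT6B (adjusted p = 0.275). On this scale the median of all windows was -0.18, and scaling by total island reads in place of TMM lowered the differences and moved that median to -0.31. With that scaling KRT7 (-0.21, adjusted p = 0.0246) and KRT8 (-0.30, adjusted p = 0.00898) were called lower in SKBR3.

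The 5 keratins on chromosome 17 lay in a stretch where SKBR3 had more island reads altogether. In the 1 Mb on each side of the 5 chromosome 17 members, island reads per 1e+06 were higher in SKBR3 by 2.22 on the log2 scale around KRT19, 2.203 around KRT15, 2.03 around KRT14, 2.02 around KRT17 and 1.07 around KRT23, while around the 5 chromosome 12 members the difference ran from -0.17 to -0.07. Around KRT19, islands covered 50.6% and 57.7% of that flanking sequence in SKBR3 with 78.9 and 72.8 reads per kb of island, and 19.7% and 18.0% in BT474 with 54.9 and 47.7. Of the 87 tested genes other than keratins within 1 Mb of these members, 65 were higher in SKBR3 and 14 higher in BT474. Copy number was not measured, so a gain of this stretch in SKBR3 and more of the mark per copy cannot be told apart. At ERBB2 on the same chromosome, whose amplification is shared by the lines, the window held 202 and 197 reads per kb of island in SKBR3 and 361 and 299 in BT474, and the log2 difference was -0.48 ± 0.034 (adjusted p = 0.00109).

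When window reads were taken relative to those of the flanking 1 Mb on each side, 4 of the 10 keratins stayed higher in SKBR3 and 2 turned, where 27.2% of all windows were higher in SKBR3 and 30.3% higher in BT474 on this scale. KRT14 kept a log2 difference of 2.43 ± 0.11 (adjusted p = 0.00110), KRT23 1.65 ± 0.12 (adjusted p = 0.00191), KRT17 1.39 ± 0.19 (adjusted p = 0.00672) and KRT5 1.39 ± 0.12 (adjusted p = 0.00225). The flank of KRT23 was unlike those of the other chromosome 17 members. In BT474 it held 95.9 and 82.8 reads per kb of island, against 54.9 to 55.6 and 47.7 to 48.1 around them. The log2 difference of its flank was 1.07, against 2.02 to 2.22 for theirs, so the relative value of KRT23 depends on where its flank lies. KRT19 moved from 1.32 to -0.89 ± 0.064 (adjusted p = 0.00173) and KRT15 from 1.61 to -0.59 ± 0.057 (adjusted p = 0.00297), so relative to their surroundings these neighbours were lower in SKBR3. On the same relative scale the luminal genes KRT7, KRT8 and KRT18 stood at -0.01, -0.08 and 0.15 and did not pass the test, as did not KRT6B at 0.31. Of the 4 luminal genes 0 were then higher and 1 lower in SKBR3, and of the 6 basal genes 4 were higher and 1 lower.

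**Figure D4:**
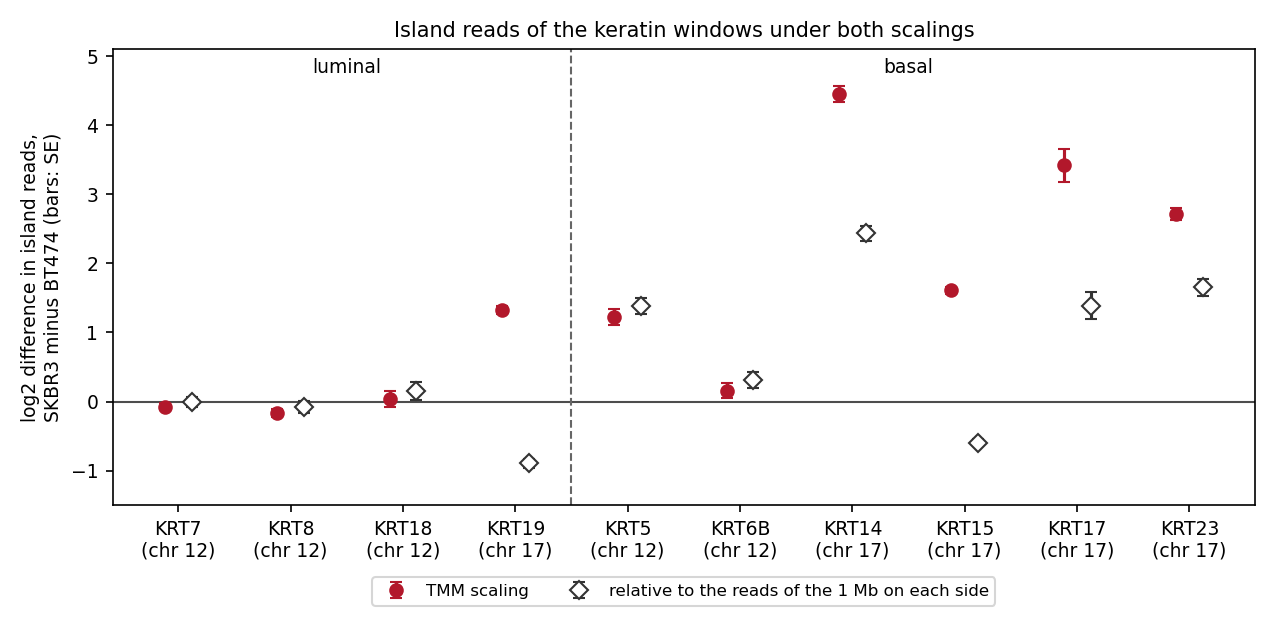
Log2 difference in H3K4me1 island reads, SKBR3 minus BT474 (y axis), for the 10 keratin windows (x axis), with standard errors from the edgeR fit, as filled circles with TMM scaling and as open diamonds relative to the reads of the 1 Mb on each side. KRT19 and KRT15 cross 0 between the scalings, whereas KRT5, KRT14, KRT17 and KRT23 stay above it.

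The other 45 keratin genes followed the same division by chromosome. Windows of neighbouring keratins overlap, with each other and with those of the 10, so their counts are not of separate stretches. On chromosome 17, 22 of 23 were higher in SKBR3, with a median log2 difference of 2.77. The remaining one, KRT25, named after its values were seen, stood at 3.73 ± 1.97 and did not pass the test (adjusted p = 0.167). On chromosome 12, 7 of 22 were higher and 3 lower, with a median of 0.15, against 30.1% higher and 36.1% lower among all windows. Relative to the flanking 1 Mb, 16 of the 23 on chromosome 17 were higher and 4 lower, against 27.2% and 30.3% of all windows. The keratins with the widest gap upwards were KRT27 (527 and 757 reads in SKBR3), KRT26 (503 and 345) and KRT34 (151 and 355). None of these had an island in BT474, so no fold is given, and the windows of KRT26 and KRT27 overlap. The widest downwards were KRT6C, with 157 and 154 reads in BT474 and no island in SKBR3, KRT73 with a log2 difference of -1.81 ± 0.14 (adjusted p = 0.00130) and KRT2, a keratin of the upper epidermis, with -0.76 ± 0.13 (adjusted p = 0.00949). KRT6A, a close copy of KRT6B and KRT6C that was singled out after its values were seen, had 217 and 220 reads in SKBR3 and no island in BT474. Reads placed in close copies cannot be assigned to 1 gene with certainty. The reads counted for KRT6C and KRT6A lay in islands outside their gene bodies, shared with neighbouring windows. The BT474 island of KRT6C was the one upstream of KRT6B, and the SKBR3 islands of KRT6A lay mostly in the KRT5 window.

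**Figure D5:**
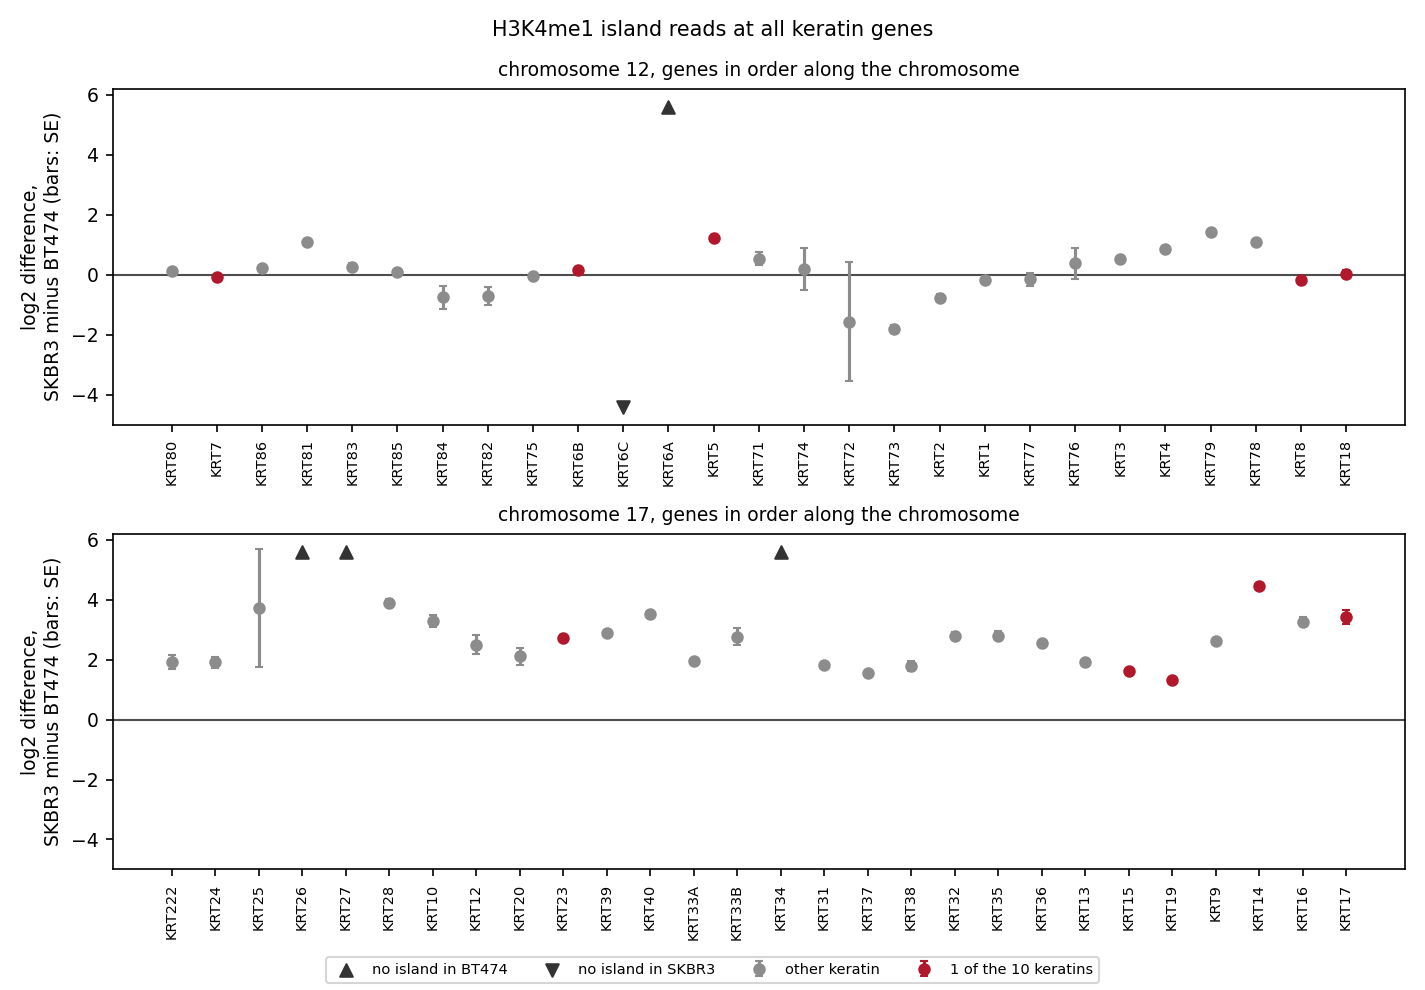
Log2 difference in island reads, SKBR3 minus BT474 (y axis, bars for the standard error), of all 55 keratin genes in their order along chromosome 12 and chromosome 17 (x axis), with the 10 keratins in red and triangles for genes without an island in a line. With this scaling the chromosome 17 genes all lie above 0, though 2 of the 10 keratins and 4 others there turned lower relative to the flanking 1 Mb, and those of chromosome 12 lie on both sides.

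Of 15 genes on a list of keratin filament partners, 6 had more island reads in SKBR3 and 2 more in BT474, and 7 did not pass the test, against 30.1% and 36.1% of all windows. Among the 7 was KRTCAP2, whose product is not known to bind or anchor the filaments. PKP1 (1.72 ± 0.075 on the log2 scale), JUP (1.64 ± 0.078) and EVPL (2.83 ± 0.13), all desmosome or cornified envelope proteins, were higher in SKBR3 with DST, ITGB4 and TCHP. DSP, the desmoplakin that ties keratins to desmosomes, was lower (-0.69 ± 0.10), as was ITGA6 (-0.80 ± 0.10), the partner of ITGB4 in hemidesmosomes. JUP lies within 1 Mb of KRT17. Relative to the flanking 1 Mb, 5 of the 15 were higher in SKBR3 and 2 lower, against 27.2% and 30.3% of all windows, and they were in part other genes. DST, TCHP and EVPL stayed higher, PLEC and PKP2 became higher, and JUP turned to -0.39 ± 0.060 (adjusted p = 0.00862) and was lower with PPL. PKP1, ITGB4, DSP and ITGA6 no longer passed the test.

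Each of the 4 HER2 lists had a peak in the window of 1 of the 10 genes, where 7.83% of all windows had one in SKBR3 vehicle, 8.37% in SKBR3 EGF, 24.2% in BT474 vehicle and 54.6% in BT474 EGF. In SKBR3 it was KRT14 in both lists and in BT474 KRT23 in both, and none of the luminal genes had one in any list. The 1 of 10 is near the share of all windows in the SKBR3 lists, and below it in those of BT474. A longer window has more room for a peak, and the shares were not matched for length. Some windows of the 10 also overlap, so they are not separate chances. Of the 45 other keratins, 1 had a peak in its window in SKBR3 vehicle, 2 in SKBR3 EGF, 2 in BT474 vehicle and 18, or 40% of them, in BT474 EGF. Those in SKBR3 were the peaks described below at KRT14 and near KRT7. Some in BT474 EGF counted for more than 1 gene, since windows overlap. No HER2 peak lay within 20 kb of any of the 5 members on chromosome 12. Each condition had a single list, so no treatment was tested, and the score of a peak is compared only within its list.

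At KRT14, the SKBR3 vehicle peak at chr17:39734921-39735139 had a score of 44, rank 758 of 2596 in its list, and lay 8.12 kb downstream of the KRT14 start in intergenic sequence. After EGF that list position held no peak, and a peak at chr17:39729819-39730038 with a score of 167.5, rank 884 of 2520, lay 13.2 kb downstream of the start. For both, the nearest gene start was that of KRT9, the type I keratin of palm and sole skin, at 6.72 kb and 1.62 kb. Both peaks lay in H3K4me1 islands of both SKBR3 replicates and in none of BT474. The vehicle peak, printed first above, contains an unbroken run of 31 pyrimidines, and 11.1% of the peaks in its list have a run of pyrimidines or purines as long, whereas the EGF peak has at most 9.

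At KRT23, the BT474 vehicle peak at chr17:39082738-39082947 (score 41.0, rank 6539 of 8559) and the EGF peak at chr17:39082625-39082950 (score 71.0, rank 10807 of 29326) overlapped in an intron of the gene, 11.1 kb from its start. The nearest gene start, 5.16 and 5.11 kb away, was that of an overlapping gene without a symbol (ENSG00000234477). This intron lay in islands of both SKBR3 replicates but of neither BT474 replicate, so the peak was in BT474 and the island in the other line. The other EGF peak, at chr17:39105266-39105475 (score 54.0, rank 15127), lay 11.5 kb upstream of KRT23 in an intron of the same overlapping gene and in islands of all 4 libraries.

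The nearest peaks just beyond the windows were at KRT7 and KRT5. In both lines the EGF list, and neither vehicle list, held a peak 22.6 kb and 22.5 kb upstream of the KRT7 body, at chr12:52603553-52603752 in SKBR3 (score 85.5, rank 1722 of 2520) and chr12:52603566-52603765 in BT474 (score 34.5, rank 22761 of 29326). They overlapped in an exon of the noncoding gene LINC02874 and in islands of all 4 libraries, and both contain a run of 23 pyrimidines, as long as in 8.13% and 7.17% of the peaks of their lists. At KRT5 a BT474 EGF peak (score 19.5, rank 28085) lay 20.6 kb upstream of the body, with KRT71 as the nearest gene start, in islands of SKBR3 and not of BT474. With windows of 50 kb on each side the number of keratins with a peak was 2 in SKBR3 vehicle, 4 in SKBR3 EGF, 1 in BT474 vehicle and 4 in BT474 EGF. Some counted the same peak, as KRT17 and KRT19 did with the SKBR3 EGF peak of KRT14. No share of all windows is given at this width, and the shares above for 20 kb do not serve as background for these counts. KRT8 and KRT18 stayed without a peak, the nearest being 162 kb from KRT8 and 207 kb from KRT18, both in BT474 EGF.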

How the data were processed

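Each list was used as deposited. The methods of the study give single-end reads of 36 bases, bowtie2 on hg19, a minimum mapping quality of 5, peak calling by MACS2 (HER2) and SICER (H3K4me1) against input DNA of the line, and exclusion of blacklisted and greylisted regions. The submitters' processing notes name BWA 0.5.9, MACS 1.4.1 and SICER 1.1 instead, which was not settled. The deposited island files give counts of reads per island, unscaled. The authors' HER2 files give a score in steps of 0.5 on an unstated scale. Inputs were not analysed here. The total island reads set the precision, and intervals were not computed because islands list only enriched stretches.

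Windows came from GENCODE release 44 on GRCh37, where chromosomes 12 and 17 are 133851895 and 81195210 bp long as in hg19. An island partly in a window gave its reads in proportion, rounded to whole counts. Windows with a mean of at least 10 reads were fitted with edgeR 4.0.16 (TMM, quasi-likelihood, 2 replicates per line, no covariate) in R 4.3.3. The fit was tested on simulated data. Standard errors follow from its F statistic. Groups of samples came from the labels. DESeq2 1.42.0, limma 3.58.1 (log2 of reads per 1e+06 plus 1), other scalings, windows and left-out replicates were alternatives. The start of the canonical transcript, starts between islands and peaks 20 to 50 kb away were added after seeing the data. Members, gene lists and tests were chosen with earlier results of these data known. Text names all 10 members, the 3 other keratins with the largest called difference in each direction, the gene start nearest each peak in a window, and ERBB2. KRT25, KRT6A, CDH1, ACTA2, CNN1, CDH3, SNAI2, the partner genes printed and the peaks beyond the windows were named outside that rule, after their values were seen.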

Additional observations from a re-analysis of the deposited data

How the results depend on the processing

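Of the alternatives for the log2 differences of the 10 keratins, 114 of 129 kept both direction and side of the threshold. Relative to the flanking 1 Mb, KRT19 turned to -0.89 and KRT15 to -0.59. KRT18, which passed no test, turned to -0.10 with total island reads and with limma, -2.66 over the gene body, -0.13 with 50 kb, and ran from -0.083 without SKBR3 replicate 1, through -0.0023 without BT474 replicate 2, to 0.17 without SKBR3 replicate 2, while KRT7 turned to 0.080 with 50 kb. KRT7 became called at -0.21 with total island reads and limma, and KRT8 at -0.30 with both, -0.16 with DESeq2 and -0.22 without SKBR3 replicate 1. The number of keratins higher in BT474 was thus 2 with total island reads, limma or the flanking 1 Mb, 1 with DESeq2, and 0 to 1 on leaving out a replicate. Causes were not tested.

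All windows higher in BT474 numbered 6614, and 3739 to 7463 on leaving out a replicate (3796 without BT474 replicate 1 and 3739 without replicate 2). Other keratins higher in SKBR3 numbered 29, and 17 over gene bodies. Those higher in BT474 numbered 3, 7 relative to the flanking 1 Mb, and 1 to 6 on leaving out a replicate (6 without SKBR3 replicate 2, and 1 without either of BT474). The replicate numbers share nothing but a number (correlation of deviations -0.01), and with a replicate block 4467 windows were higher in SKBR3 and 4918 in BT474.

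The luminal minus basal difference of 28.7 points in SKBR3 was -4.44 over gene bodies, 8.64 with 50 kb, 14.2 with means, 34.7 with the denser islands and 25.8 to 31.6 on leaving out a replicate. In BT474 it was 59.4, 27.9, 37.5 and 52.5 in the same order, 52.0 without KRT23 and 47.9 to 48.5 on leaving out a replicate. Starts covered were 8 in SKBR3 and 6 in BT474 by any annotated start, and 9 and 8 with any island within 2 kb. Keratins with a HER2 peak were 0 in both SKBR3 lists over gene bodies, 0 in BT474 vehicle among peaks at or above the median score, and 2, 4 and 4 with 50 kb in SKBR3 vehicle, SKBR3 EGF and BT474 EGF. For these alternative counts of starts and of peaks no share of all genes is given, so they have no background.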
